A study of Homo sapiens with 19 samples.

Results

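Polycomb repressive complex 1 (PRC1) genes were examined in H1 human embryonic stem cells (hESCs) that lacked subunits of the other Polycomb complex, PRC2. The set comprised 9 genes, found by gene symbol in the RNA-seq tables of all 19 samples, out of 33382 genes listed there. Levels are in TPM, a share of transcripts corrected for their length and scaled to the same sum in every sample. They were the chromobox genes CBX2, CBX6, CBX7 and CBX8, the PCGF genes PCGF1, PCGF2 and BMI1 (PCGF4), and the RING genes RING1 and RNF2. Each was represented by 1 row, and all 9 passed the filter on low expression used for the tests.

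H1 is an established hESC line. It was present as wild type (WT H1) and as 5 knockouts, lacking EED (EED-/- H1), SUZ12 (SUZ12-/- H1), EZH1 (EZH1-/- H1), EZH2 (EZH2-/- H1) or both enzymes (EZH2-/-/EZH1-/- H1), with 2 samples each. In the knockouts the functional domain of the gene was removed by CRISPR/Cas9 with homologous recombination and a drug resistance cassette, and the double knockout was made by deleting EZH1 in EZH2-/- H1 cells. A further line, H1-EED-/-/EED-OE, lacked endogenous EED and carried a lentiviral, doxycycline (DOX) inducible EED. It had 1 sample with DOX and 1 sample at each of days 8, 12, 16, 20, 24 and 28 after DOX withdrawal. The sample with DOX is the reference for every day. It was assigned by its treatment label, while its title carries a day code like those of the withdrawal samples, so its place rests on that label. The study found H3K27me3, the histone mark of PRC2, lost without SUZ12, without EED and in the double knockout, called here the PRC2-null lines, and kept at a lower level in both single-enzyme knockouts, called here with WT H1 the retaining lines. All cells were grown in mTeSR1 on matrigel, and the titles of the paired knockout samples carry different clone or passage codes. Nothing states whether the WT H1 samples were separate cultures, so p-values measure the spread between these samples, which may be partly technical.

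PRC1 is built around a RING1 or RNF2 (RING1B) subunit, the E3 ligase that places ubiquitin on histone H2A, paired with 1 of the PCGF proteins. In canonical PRC1 the partner is PCGF2 (MEL18) or BMI1, and a CBX protein of the chromobox class binds the H3K27me3 that PRC2 leaves, so that canonical PRC1 is brought to PRC2-marked genes. Variant PRC1 complexes, such as the one with PCGF1, carry RYBP or YAF2 in place of a CBX protein and do not need H3K27me3 to reach chromatin. The genes of canonical PRC1 are themselves known to be exchanged as stem cells differentiate, and BMI1 is best known as a repressor of the CDKN2A locus and as a factor in the self-renewal of adult stem cells.

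On GRCh38 (GENCODE release 44), CBX2 lies at chr17:79778148-79787983 on the plus strand and CBX8 at chr17:79792132-79801683 on the minus strand, 4148 bases apart. CBX6 (chr22:38861422-38872249) and CBX7 (chr22:39120167-39152680) are both on the minus strand of chromosome 22, 247917 bases apart. PCGF2 lies at chr17:38733898-38749817, PCGF1 at chr2:74505043-74507695, RING1 at chr6:33208500-33212722 and RNF2 at chr1:185045526-185102603. BMI1 lies at chr10:22321099-22331484, and overlaps the readthrough gene COMMD3-BMI1 (chr10:22316388-22329542), which joins it to the upstream gene COMMD3 on the same strand. PCGF2 overlaps the protein-coding gene CISD3 on the opposite strand, and PCGF1 overlaps the long non-coding RNA gene LBX2-AS1 on the opposite strand. The strand setting of the counting was not given in the sources used here.

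The promoters of BMI1 and RING1 are shown because these genes, on different chromosomes, both rose in the PRC2-null against the retaining lines. Each runs from 250 bases before to 50 bases after the start site in the RefSeq table for GRCh38.p14, on the plus strand, and capitals mark CG dinucleotides.
BMI1, chr10:22320849-22321148: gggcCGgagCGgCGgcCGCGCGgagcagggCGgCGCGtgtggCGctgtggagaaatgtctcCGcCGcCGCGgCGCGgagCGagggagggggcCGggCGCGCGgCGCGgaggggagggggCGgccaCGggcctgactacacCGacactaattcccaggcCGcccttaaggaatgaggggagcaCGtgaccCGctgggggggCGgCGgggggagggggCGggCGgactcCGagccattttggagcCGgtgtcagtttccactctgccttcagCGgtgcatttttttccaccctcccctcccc
RING1, chr6:33208250-33208549: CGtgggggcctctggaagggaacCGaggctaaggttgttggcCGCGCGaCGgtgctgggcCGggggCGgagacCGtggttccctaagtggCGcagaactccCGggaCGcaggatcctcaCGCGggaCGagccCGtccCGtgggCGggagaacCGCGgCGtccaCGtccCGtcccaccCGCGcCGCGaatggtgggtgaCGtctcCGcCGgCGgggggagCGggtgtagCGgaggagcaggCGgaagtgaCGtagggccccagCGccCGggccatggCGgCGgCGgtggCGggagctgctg
The BMI1 window held 36 CG dinucleotides and 73.3% G and C, and the RING1 window held 41 and 74.3%. Among 35116 promoter windows of the same length the median was 14 CG dinucleotides, and 12.7% held at least 36 and 6.7% at least 41. A further BMI1 window in the table, at chr10:22321706-22322005 with its start site 857 bases from the GENCODE start, held 65, the most of any member. Of the other members CBX6 held 47, CBX7 50, RNF2 41 and PCGF1 14. For PCGF2 the start site of the table's window (2 CG dinucleotides) is 3189 bases from the GENCODE start, and CBX2 and CBX8 have no entry.

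BMI1 and CBX8 were higher, and CBX2 lower, in each of the PRC2-null lines than in WT H1 cells, and RING1 was higher in EED-/- and SUZ12-/- H1 cells. BMI1 went from the lowest of the 3 PCGF members in WT H1 cells to the highest of all 9 genes in EED-/- and SUZ12-/- H1 cells, and CBX8 from under 1 TPM to between 7.56 and 16.76 TPM in the PRC2-null lines. In limma on log2(TPM + 1), with a call at an adjusted p of at most 0.01, EED-/- H1 cells had 3 members called up and 1 down, against 24.7% of 19100 genes up and 11.8% down. SUZ12-/- H1 cells also had 3 members up and 1 down, with 21.3% and 11.6% of all genes. EZH2-/-/EZH1-/- H1 cells had 2 members up and 1 down, with 18.1% and 11.3% of all genes. These shares are near the members' own, so the counts say nothing particular of the set, and the genes are described singly.

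**Figure D1:**
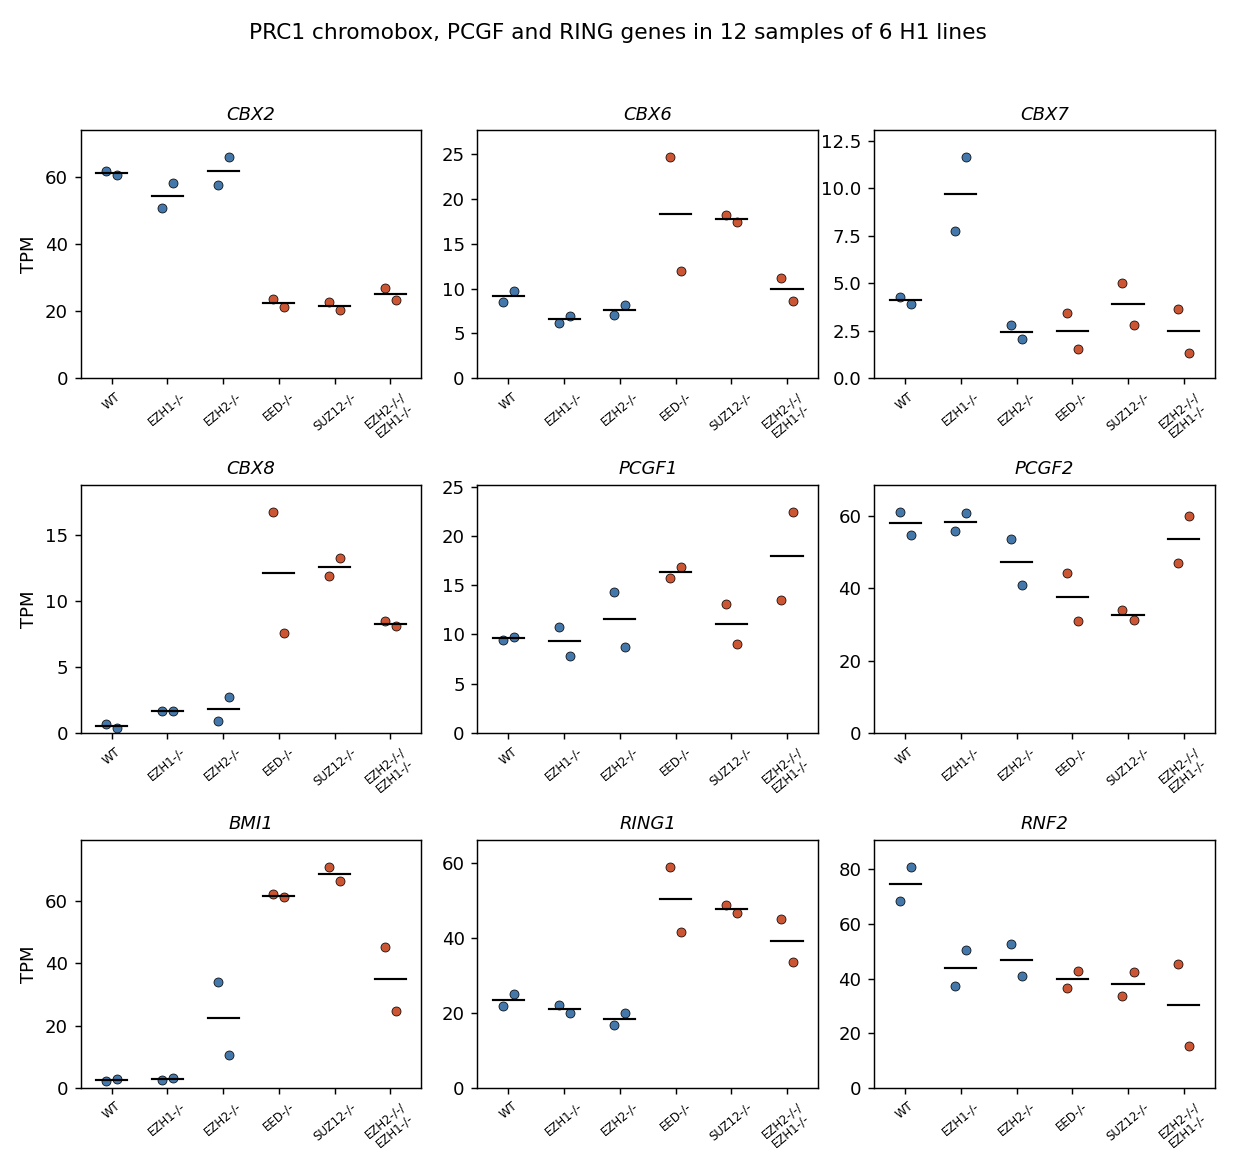
TPM of the 9 PRC1 genes (vertical axes from 0, a scale per gene) in the 2 samples of each of the 6 lines, with a bar at the line mean and the retaining lines in blue and the PRC2-null lines in orange. CBX2 sits at 50.64 to 66.0 in the retaining samples and at 20.38 to 26.8 in the PRC2-null samples, while BMI1 is near 3 in WT and EZH1-/- H1 cells, split in EZH2-/- H1 cells and high in the PRC2-null lines.

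Among the chromobox genes, CBX2 was the leading member in WT H1 cells, at 61.93 and 60.73 TPM. It was at 50.64 and 58.2 TPM in EZH1-/- H1 and 57.75 and 66.0 TPM in EZH2-/- H1 cells. It was at 23.61 and 21.18 TPM in EED-/- H1, 22.68 and 20.38 TPM in SUZ12-/- H1, and 26.8 and 23.43 TPM in EZH2-/-/EZH1-/- H1 cells. All 6 PRC2-null samples were therefore below all 6 retaining samples, as was the case for 13.3% of the 19100 genes. The log2 fold change against WT H1 was -1.42 (SE 0.19, adjusted p = 0.000112 in limma) in EED-/- H1, -1.47 (SE 0.19, adjusted p = 9.53e-05) in SUZ12-/- H1 and -1.26 (SE 0.19, adjusted p = 0.000334) in EZH2-/-/EZH1-/- H1 cells.

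CBX8, a PRC1 chromobox protein known as a partner of BMI1 at CDKN2A, moved the other way at the neighbouring locus. It was at 0.69 and 0.39 TPM in WT H1, 1.65 and 1.68 TPM in EZH1-/- H1 and 0.93 and 2.71 TPM in EZH2-/- H1 cells. It reached 16.76 and 7.56 TPM in EED-/- H1, 11.86 and 13.29 TPM in SUZ12-/- H1 and 8.49 and 8.07 TPM in EZH2-/-/EZH1-/- H1 cells. The 6 PRC2-null samples were all above the 6 retaining samples, as for 24.2% of all genes. On the log2(TPM + 1) scale, which understates the change of a gene near 0, the fold changes against WT H1 were 8.04, 8.84 and 6.05 in the order EED-/-, SUZ12-/- and double knockout, with limma adjusted p of 0.000101, 8.18e-05 and 0.000362.

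CBX6 was at 6.2 to 9.72 TPM in the retaining samples and at 24.7 and 12.01 TPM in EED-/- H1, 18.18 and 17.38 TPM in SUZ12-/- H1 and 11.2 and 8.63 TPM in EZH2-/-/EZH1-/- H1 cells. The groups overlapped through the double knockout. Against WT H1 no line was called (limma adjusted p = 0.0412 in EED-/-, 0.0372 in SUZ12-/- and 0.816 in EZH2-/-/EZH1-/- H1 cells). CBX7, the chromobox gene that dominates in mouse embryonic stem cells, was low throughout, at 1.32 to 5.02 TPM in the PRC2-null samples and 4.28 and 3.92 TPM in WT H1 cells. Its highest values, 7.74 and 11.65 TPM, were in EZH1-/- H1 cells. None of the 5 comparisons with WT H1 was called for CBX7, with a log2 fold change of 1.04 (SE 0.41, limma adjusted p = 0.247) in EZH1-/- H1 cells.

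BMI1 spanned the widest range of TPM among the 9 genes over the 12 samples of the 6 lines, although CBX8 spanned more as a ratio. It was at 2.12 and 2.99 TPM in WT H1 and 2.37 and 3.06 TPM in EZH1-/- H1 cells. It was at 62.23 and 61.23 TPM in EED-/- H1, 71.01 and 66.5 TPM in SUZ12-/- H1 and 45.36 and 24.72 TPM in EZH2-/-/EZH1-/- H1 cells. The EZH2-/- H1 samples were at 34.13 and 10.59 TPM, between these groups, and the higher of them exceeded one double knockout sample. The fold change against WT H1 was 17.8 in EED-/- H1 (log2 4.15, SE 0.45, adjusted p = 2.83e-05), 19.8 in SUZ12-/- H1 (log2 4.30, SE 0.45, adjusted p = 2.39e-05) and 9.79 in EZH2-/-/EZH1-/- H1 cells (log2 3.29, SE 0.45, adjusted p = 0.000189), all by limma.

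PCGF2, the other canonical PCGF gene, was at 61.22 and 54.85 TPM in WT H1 cells and at 30.88 to 60.08 TPM in the 6 PRC2-null samples, and the groups overlapped. The log2 differences from WT H1 were -0.63 in EED-/-, -0.81 in SUZ12-/- and -0.12 in EZH2-/-/EZH1-/- H1 cells, and none was called (limma adjusted p of 0.0370, 0.0132 and 0.695). PCGF1, the subunit of the variant complex with KDM2B and BCOR, was at 9.47 and 9.77 TPM in WT H1 cells and at 9.01 to 22.45 TPM in the PRC2-null samples, and was called in none of the lines. BMI1 thus exceeded PCGF2 in all 4 EED-/- and SUZ12-/- H1 samples, while PCGF2 was the higher in all 8 others.

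RING1 was at 21.82 and 25.13 TPM in WT H1, 22.05 and 20.05 TPM in EZH1-/- H1 and 16.8 and 20.01 TPM in EZH2-/- H1 cells. It was at 59.01 and 41.59 TPM in EED-/- H1, 48.84 and 46.72 TPM in SUZ12-/- H1 and 45.03 and 33.6 TPM in EZH2-/-/EZH1-/- H1 cells, all above the retaining samples. It was called against WT H1 in EED-/- (fold change 2.07, limma adjusted p = 0.00337) and SUZ12-/- H1 cells (2.00, adjusted p = 0.00492) and not in EZH2-/-/EZH1-/- H1 cells (1.63, adjusted p = 0.0297). The calls of RING1 against WT H1 were near the threshold and were lost when either WT H1 sample was left out (adjusted p of 0.0344 and 0.0154 for EED-/-, 0.0461 and 0.0208 for SUZ12-/- H1 cells). RNF2 was at 68.47 and 80.9 TPM in WT H1 cells and at 15.4 to 45.31 TPM in the PRC2-null samples, but also at 37.41 and 50.45 TPM in EZH1-/- H1 and 52.79 and 40.85 TPM in EZH2-/- H1 cells. None of its differences from WT H1 was called, the largest being -1.45 on the log2 scale (SE 0.39, adjusted p = 0.0121) in EZH2-/-/EZH1-/- H1 cells, whose samples were 45.31 and 15.4 TPM. Without the first of these it was -2.20 and without the second -0.70, so its size depends on which sample is kept.

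**Figure D2:**
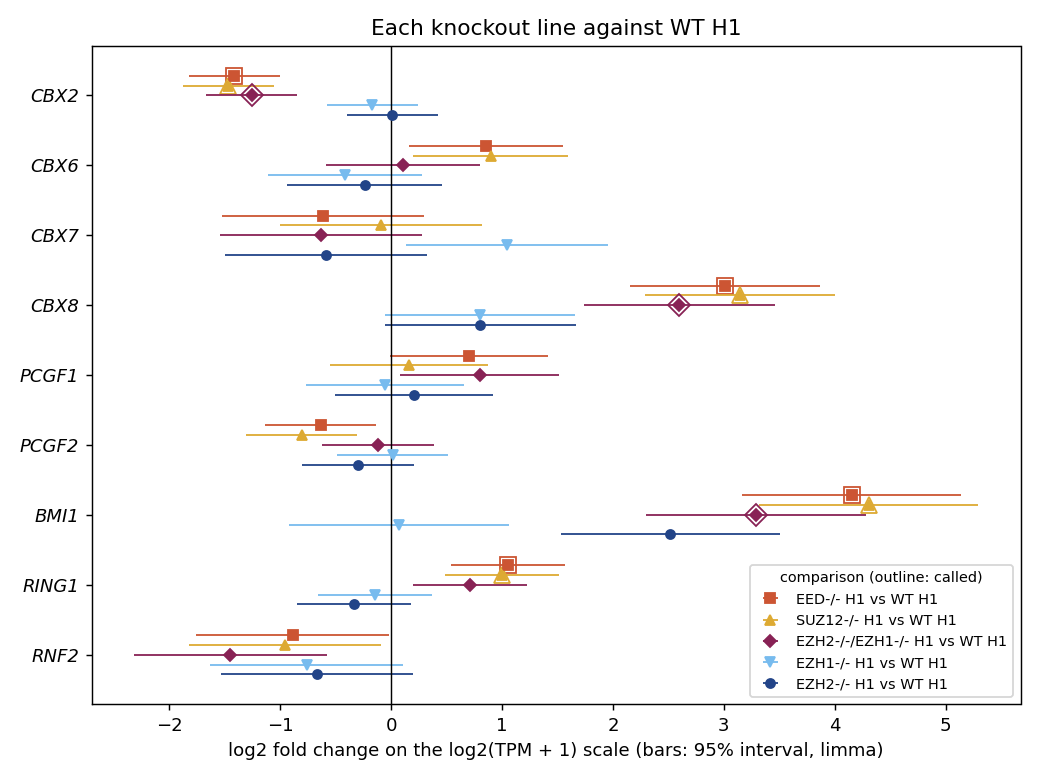
Log2 fold change of the 9 genes against WT H1 on the log2(TPM + 1) scale (horizontal axis), with 95% intervals from limma, for each of the 5 knockout lines, and a larger outline where the adjusted p is at most 0.01. BMI1 and CBX8 are called up and CBX2 down in the 3 PRC2-null lines, and the EZH2-/- H1 estimate for BMI1, 2.52, lies apart from 0 without being called.

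The single-enzyme knockouts, which keep H3K27me3 at a lower level, were compared in the same way. In EZH1-/- H1 cells limma called 0 of the 9 genes in either direction (1 at an unadjusted p under 0.05), against 0.0628% of all genes up and 0.0471% down. In EZH2-/- H1 cells it called 0 of the 9 genes (1 at an unadjusted p under 0.05) and 0% of all genes up and down (0 of 19100, with 1110 genes at an unadjusted p under 0.05). The gene with the unadjusted p under 0.05 in EZH2-/- H1 cells was BMI1, at a log2 difference of 2.52 from WT H1 (SE 0.45, 95% interval 1.53 to 3.50, unadjusted p = 0.000174, adjusted p = 0.133 in limma). In the direct comparison of EZH2-/- with EZH1-/- H1 cells 0 of the 9 genes were called (2 at an unadjusted p under 0.05), against 0.0838% of all genes in either direction. BMI1 differed there by 2.45 (SE 0.45, adjusted p = 0.0495) and CBX7 by -1.63 (SE 0.41, adjusted p = 0.127). The 10 hESC markers summed to 6024 to 7224 TPM over the 6 retaining samples, EZH2-/- H1 among them. The 8 endoderm markers summed to 4.90 to 15.1 TPM there, with 1 of them reaching 1 TPM in any sample. The 7 mesoderm markers summed to 201 to 614 TPM, with 5 of them reaching 1 TPM.

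Reads of BMI1 are shared with the readthrough gene, so its level was also read together with its neighbours. COMMD3, which has no overlap with BMI1 itself, was at 1.91 and 1.47 TPM in WT H1 and 2.24 and 2.67 TPM in EZH1-/- H1 cells. It was at 10.09 and 13.03 TPM in EZH2-/- H1 cells and at 39.96 to 84.33 TPM in the PRC2-null samples, so both genes of the locus were higher in the same lines. COMMD3 was called up in the PRC2-null lines against the retaining lines (fold change 11.7, limma adjusted p = 2.35e-08) and not in EZH2-/- H1 against WT H1 (4.65, adjusted p = 0.0235). The readthrough gene itself was at 1.56 to 3.92 TPM in WT and EZH1-/- H1 samples, at 24.35 and 12.28 TPM in EZH2-/- H1 and at 0.0 to 30.22 TPM in the PRC2-null samples, with the 0.0 in EZH2-/-/EZH1-/- H1 replicate 2, and was not called (adjusted p = 0.142). Its TPM is an estimate that RSEM splits from reads shared with BMI1 and COMMD3. The sum of BMI1 and the readthrough gene was 6.04 and 6.53 TPM in WT H1, 58.48 and 22.87 TPM in EZH2-/- H1 and 24.72 to 101 TPM in the PRC2-null samples, and with the sum in place of BMI1 alone the log2 difference of the PRC2-null from the retaining lines was 2.55 (adjusted p = 8.99e-06).

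**Figure D3:**
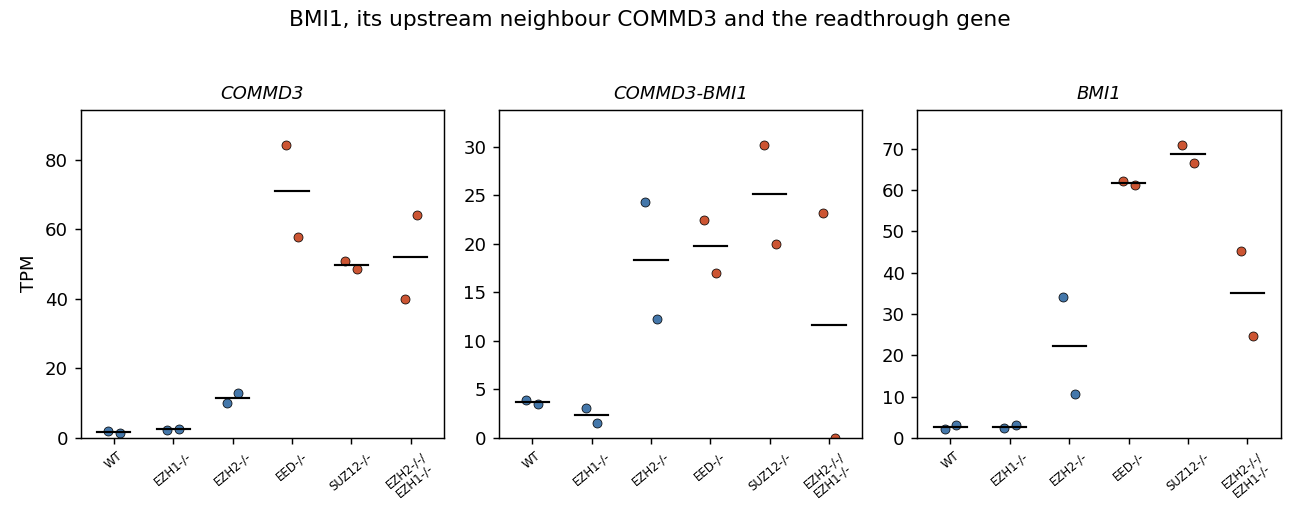
TPM of COMMD3, the readthrough gene COMMD3-BMI1 and BMI1 (vertical axes from 0, a scale per gene) in the 2 samples of each line, with a bar at the mean, retaining lines in blue and PRC2-null lines in orange. COMMD3 and BMI1 are both at 1.47 to 3.06 TPM in WT and EZH1-/- H1 cells and higher in EZH2-/- H1 and the PRC2-null lines, while the readthrough gene has a sample at 0.0 in the double knockout.

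The mean of the 3 PRC2-null lines was compared with that of the 3 retaining lines in the same fit. The SEs and p-values here rest on the spread between samples within lines, not on that among the lines of a group. For BMI1 the lines of a group differed widely, with means of 2.555, 2.715 and 22.36 TPM in WT, EZH1-/- and EZH2-/- H1 cells. Limma called BMI1, CBX8, RING1 and CBX6 up and CBX2 down, that is 4 up and 1 down of 9, against 36.8% of all genes up and 20.1% down. With a fold change of at least 3 as well, BMI1 (8.31) and CBX8 (5.22) were called up and 0 members down, against 13.5% and 5.09% of all genes, and all 9 members had an unadjusted p under 0.05, as had 13578 of the 19100 genes. The median log2 fold change was 0.50 over the 9 genes and 0.29 over all genes, so the typical gene was itself higher in the PRC2-null samples on the TPM scale. The log2 differences of RING1 (1.08, SE 0.13) and CBX6 (0.84, SE 0.18) stood above this median, and those of CBX2 (-1.33, SE 0.11), RNF2 (-0.62, SE 0.23), CBX7 (-0.60, SE 0.24) and PCGF2 (-0.43, SE 0.13) below it. After rescaling the samples by median ratios the median of all genes fell to 0.07, and RNF2, CBX7 and PCGF2 were then called down too, 4 members down in all, beside 5113 of 18930 genes. CBX6 was not called against WT H1 alone (0.62, adjusted p = 0.0606), and BMI1 stood at 3.88 with EZH2-/- H1 left out of the reference, a choice made after its values were seen. In TPM 3 of the 9 genes did not overlap between the groups of 6, CBX8 and RING1 with the PRC2-null samples above and CBX2 with them below. Of all 19100 genes 24.2% lay wholly above and 13.3% wholly below, so this count is near that of all genes.

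Whether the PRC2-null lines differed among themselves was tested directly. Limma called 0 of the 9 genes between SUZ12-/- and EED-/- H1 cells (0 at an unadjusted p under 0.05), where 9.67% of all genes were called. It called 0 between EZH2-/-/EZH1-/- and EED-/- H1 cells (2 at an unadjusted p under 0.05), with 0.089% of all genes. It called 0 between EZH2-/-/EZH1-/- and SUZ12-/- H1 cells (3 at an unadjusted p under 0.05), with 6.8% of all genes. BMI1 was at 35.0 ± 14.6 TPM (SD, n = 2) in the double knockout and at 61.7 ± 0.707 TPM in EED-/- H1 cells, and the log2 difference of -0.86 had a 95% interval of -1.85 to 0.13. The intervals for BMI1 and RNF2 between the lines are wide, and a missed threshold does not show that the lines were alike.

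Because TPM is scaled by transcript length, paralogs can be set side by side within a sample. CBX2 made up 80.3 ± 4.10% of the summed TPM of the 4 chromobox members (CBX2, CBX6, CBX7 and CBX8) in the 6 retaining samples and 45.3 ± 9.21% in the 6 PRC2-null samples (mean ± SD). CBX6 went from 10.5 ± 1.49% to 28.6 ± 5.96% and CBX8 from 1.81 ± 1.08% to 20.7 ± 3.28%, while CBX7 was at 7.35 ± 4.81% and 5.48 ± 2.14%. The total of the 4 genes was 66.23 to 78.87 TPM in the retaining and 41.45 to 68.48 TPM in the PRC2-null samples. RING1 made up 28.4 ± 5.54% of the TPM of the RING pair in the retaining samples and 56.8 ± 7.64% in the PRC2-null samples, with RNF2 the remainder. The order of the pair turned, RNF2 being the higher in all 6 retaining samples and RING1 in 4 of the 6 PRC2-null samples.

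Within the 6 PCGF paralogs, PCGF2 held 37.6 ± 5.23% in the retaining samples and 18.4 ± 5.12% in the PRC2-null samples. BMI1 held 5.73 ± 6.75% and 24.8 ± 8.36%, and its low value in the retaining samples hides the EZH2-/- H1 samples, whose share reached 18.3%. PCGF1 was at 6.91 ± 0.910% and 6.76 ± 2.10% in the respective groups. The total of the PCGF genes was 121 to 187 TPM in the retaining and 204 to 247 TPM in the PRC2-null samples. These shares are of RNA, and they are descriptions with no test.

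**Figure D4:**
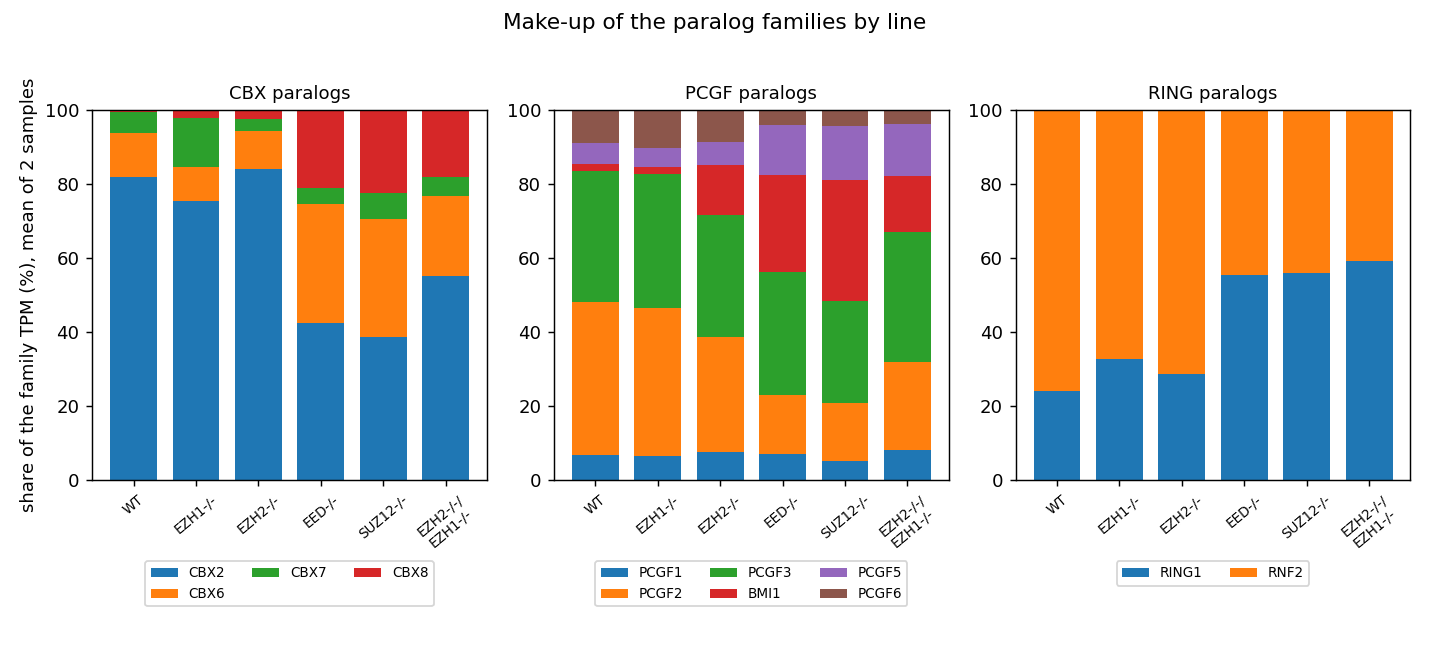
Share of each gene in the summed TPM of its panel (vertical axis, percent, mean of the 2 samples of a line) for the 4 chromobox members, the 6 PCGF genes and the RING pair in the 6 lines. CBX2 fills most of the chromobox bar in the 3 lines on the left and shares it with CBX6 and CBX8 in the 3 PRC2-null lines on the right, where RING1 is the larger part of the RING bar.

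The other subunits of PRC1 and the enzymes that remove its mark were read from a list of 41 genes. In the PRC2-null against the retaining lines limma called 14 of them up, 10 down and 17 in neither direction, beside the 36.8% and 20.1% of all genes. The polyhomeotic genes, which encode the polymerising subunit of canonical PRC1, moved in opposite directions. PHC1 was at 271.48 to 981.22 TPM in the retaining and at 14.11 to 53.42 TPM in the PRC2-null samples (17.3-fold lower, adjusted p = 3.53e-07), and PHC2 was at 5.07 to 11.79 and at 57.19 to 98.03 TPM (9.60-fold higher, adjusted p = 5.89e-08).

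Of the variant PRC1 genes, YAF2, which takes the place of CBX proteins, rose 9.43-fold and KDM2B, which directs variant PRC1 to CpG islands, fell 3.54-fold. FBRS (6.08-fold), a subunit of PCGF3 and PCGF5 complexes, and PCGF5 (3.44-fold) rose. ASXL1 (4.43-fold) and ASXL3 (4.37-fold), partners of the H2A deubiquitinase BAP1, rose as well. BCORL1 (2.85-fold) and SCML1 (2.57-fold) rose and SCML2 (2.56-fold) fell, and all 9 genes had a limma adjusted p of at most 0.000214.

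Over the 19 samples, genes with a pattern close to that of CBX8 on the log2(TPM + 1) scale included NOL3 (Pearson r = 0.934) and TMEM50B (0.925). The genes most like BMI1 were PURA (0.939), MOCS2 (0.925) and TBX15 (0.920), and those most like CBX2 were DDX25 (0.976), SEPTIN3 (0.975) and GAPDH (0.970). For RING1 the closest was ZBTB22 (0.959), 0.11 megabases away on the same chromosome. These correlations are descriptions over 19 samples that share the split between PRC2-null and retaining cells.

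The withdrawal of DOX from H1-EED-/-/EED-OE cells gave the order of these differences in time. EED was at 108.54 TPM with DOX and at 12.64 to 31.56 TPM after its withdrawal, which includes the RNA of the edited endogenous gene. BMI1 was at 3.14 TPM with DOX, near the WT H1 level, and at 36.93 TPM on day 8, 43.13 on day 12, 40.56 on day 16, 42.95 on day 20, 39.4 on day 24 and 43.69 TPM on day 28. The difference from +DOX was thus present on day 8, and all 6 days were below the EED-/- H1 samples. CBX8 was at 0.96 TPM with DOX and at 10.32, 7.01, 4.89, 4.75, 6.53 and 12.44 TPM on these days in order, above its +DOX value on each. With 1 sample a day there is no replicate check of single days. By fold alone, BMI1 (log2 difference 3.20) and CBX8 (2.53) were the 2 members at least 3-fold higher on day 8 and 0 were 3-fold lower, against 2.93% of 17245 genes higher and 0.603% lower.

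CBX2 did not move with them at first. It was at 57.34 TPM with DOX, 63.79 on day 8, 77.11 on day 12, 59.84 on day 16, 44.65 on day 20, 30.7 on day 24 and 23.75 TPM on day 28. From day 16 each value was below the one before, and the day 28 value lay within the range of the PRC2-null lines. The summed hESC markers were at 5290 TPM with DOX, 5715, 6558 and 6285 TPM on days 8, 12 and 16, and 2849, 576 and 554 TPM on days 20, 24 and 28, so CBX2 was lower on the days on which these were lower. The sums of neural ectoderm, endoderm and endothelial markers were already above +DOX on days 8, 12 and 16, when BMI1 and CBX8 were high. The mesoderm sum was below +DOX on days 8 and 12 and above it on day 16. The 4 neural ectoderm markers summed to 78.3 TPM with DOX and to 235, 133 and 135 TPM on days 8, 12 and 16, and the 8 endoderm markers to 4.35 and to 9.48, 33.7 and 88.6 TPM. The 4 endothelial markers summed to 42.0 TPM with DOX and to 68.8, 160 and 194 TPM on these days, and the 7 mesoderm markers to 362 and to 142, 210 and 560 TPM. On day 8 OTX2 (log2 difference 3.10) and SOX1 (2.84) were among the higher neural markers. By day 16 the mesendoderm genes T (6.97) and MIXL1 (7.02) and the endoderm gene GATA4 (5.10) were above their +DOX values. Of the same mesoderm and endoderm lists TAGLN (-1.73), CNN1 (-1.35) and AFP (-1.16) were below their +DOX values on day 16. All these genes were named after their values were seen. The part of these cells in the values of BMI1, CBX8 and CBX2 was not tested.

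RING1 was at 35.5 TPM with DOX, above every retaining sample, and at 31.35 to 43.08 TPM after withdrawal. RNF2 was at 38.37 TPM with DOX, below both WT H1 samples (68.47 and 80.9 TPM) and within the range of the PRC2-null samples. After withdrawal it was at 65.14 to 106.21 TPM, above this 1 reference sample on all 6 days. In the knockout lines its values were lower than in WT H1, with none of the differences called. PCGF2 was at 107.17 TPM with DOX and 66.63 to 110.44 TPM after withdrawal, above every sample of the 6 other lines, so the level of a gene in this line can differ from theirs with DOX present. CBX6 was at 7.91 TPM with DOX and 4.3 to 9.71 TPM after withdrawal, CBX7 at 6.73 and 0.89 to 4.0 TPM, and PCGF1 at 14.04 and 14.22 to 21.7 TPM.

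A linear term for day over the 6 withdrawal samples, fitted by limma over 17099 genes, called 0 of the 9 genes up and 0 down (1 at an unadjusted p under 0.05), against 1.36% of genes up and 0.667% down. The samples are a time series of 1 line and not independent replicates. The gene with an unadjusted p under 0.05 was CBX2, with a slope of -0.08 log2 units a day (SE 0.02, adjusted p = 0.0186). The slope of BMI1 was 0.01 (SE 0.01, adjusted p = 0.751), and it carries no information on the difference between +DOX and day 8. By fold alone, BMI1 (log2 difference 3.43) and CBX8 (2.78) were again the 2 members at least 3-fold higher than +DOX on day 28. On that day 0 members were at least 3-fold lower, when 18.8% of genes were 3-fold higher and 6.11% 3-fold lower. On days 12, 16, 20 and 24 the log2 differences from +DOX were 3.41, 3.33, 3.41 and 3.29 for BMI1. Those of CBX8 were 2.03, 1.59, 1.55 and 1.94, short of 3-fold on day 20, when CBX7 (-2.03) was 3-fold lower. The share of all genes was counted for days 8 and 28 alone, so the other days have no background.

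**Figure D5:**
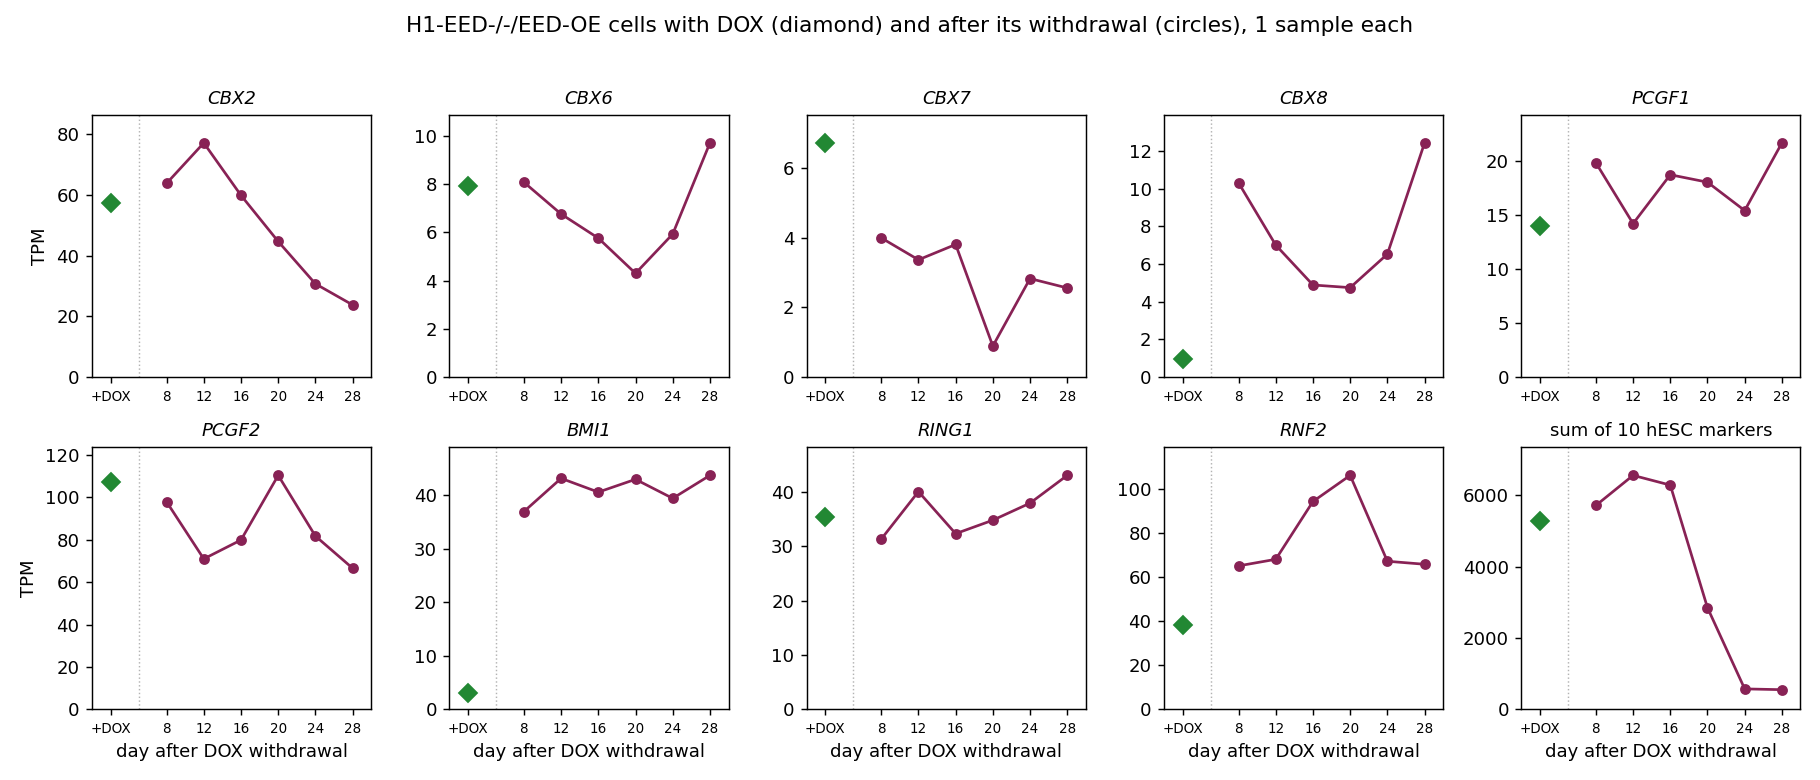
TPM of the 9 genes and the sum of 10 hESC markers (vertical axes from 0, a scale per panel) in H1-EED-/-/EED-OE cells with DOX (green diamond) and on 6 days after its withdrawal (purple circles), 1 sample each. BMI1 is at 3.14 TPM with DOX and 36.93 to 43.69 TPM from day 8, while CBX2 and the hESC markers are near their +DOX level to day 16 and lower on days 20 to 28.

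CDKN2A and CDKN2B, the locus at which BMI1 and CBX8 are known as repressors, were read beside them. CDKN2A was at 0.44 to 13.93 TPM in the retaining and at 109.34 to 586.41 TPM in the PRC2-null samples (log2 difference 6.69, SE 0.32, limma adjusted p = 2.42e-08). It was at 1.1 TPM with DOX, 19.23 to 46.4 TPM on days 8 to 20 and 310.05 and 518.07 TPM on days 24 and 28. CDKN2B was at 0.0 to 0.66 TPM in the retaining samples and 34.08 to 561.78 TPM in the PRC2-null samples, and after DOX withdrawal it was at 0.35 to 1.28 TPM up to day 20 and 40.02 and 362.05 TPM on days 24 and 28. BMI1, CBX8 and CDKN2A RNA were thus all high in the PRC2-null samples. On days 8 to 20 CDKN2A was below every PRC2-null sample but above its +DOX value (log2 difference 3.47 on day 8). CBX8, at 4.75 to 7.01 TPM on days 12 to 24, was also below every PRC2-null sample on those days.

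Other measures moved with the split between PRC2-null and retaining samples. All 10 hESC markers were detected in both groups, but POU5F1 was at 3.62 to 149.79 TPM in the PRC2-null samples and 2428 to 3456 TPM in the retaining samples, and the list summed to 233 to 563 TPM in the PRC2-null samples, so the hESC label no longer matches the markers there. The 8 endoderm markers summed to 931 to 16939 TPM in the PRC2-null and 4.90 to 15.1 TPM in the retaining samples, where TTR was at 0 in all 6. The 7 mesoderm markers summed to 1219 to 5338 TPM against 201 to 614 TPM, with HAND1 at 0 in all 6 retaining samples. The 4 endothelial markers summed to 45.5 to 451 TPM against 44.7 to 142 TPM, and the 4 neural ectoderm markers to 67.1 to 385 TPM against 94.5 to 196 TPM. The 8 cell division genes summed to 228 to 306 TPM against 984 to 1524 TPM. In bulk samples a change in the share of a cell type and a change of RNA per cell cannot be told apart, and the part of cell identity or of proliferation in the differences of BMI1, CBX8, CBX2 and RING1 was not tested. Whole-gene TPM of EZH1, EZH2, EED and SUZ12 stayed at 6.78 to 58.9 TPM across the 12 samples, and as a domain and not the gene was deleted it does not check the genotypes.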

How the data were processed

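RNA was sequenced from TruSeq libraries. Per the study's methods, the authors used RSEM with Bowtie2 and the GRCh38 transcriptome. The labels name RSEM and Bowtie, and list hg19 beside GRCh38 and hg38, so they do not settle the build. The deposited values are TPM, corrected for transcript length and scaled to 1 sum in every sample, so read depth is unknown and precision rests on the 2 samples of a line. The 9 genes and all lists were chosen with earlier results of these data known. Samples were grouped by the genotype, treatment and time in the labels. Genes reaching 1 TPM in 2 or more of the 12 samples of the 6 lines (19100) were fitted as log2(TPM + 1) with limma 3.58.1 in R 4.3.3 (lmFit, contrasts.fit, eBayes with trend and robust), with 1 coefficient per line and 6 residual degrees of freedom. P-values were adjusted by Benjamini-Hochberg over all genes tested, and a call was an adjusted p of at most 0.01. The fit over withdrawal days used 17099 genes and 4 residual degrees of freedom. The script was tested on simulated data. Genes were named by rule: the 9 members, of 41 PRC1 partners those called with a 3-fold change and then the largest changes up to 12, the targeted genes, CDKN2A and CDKN2B, and the 3 most similar genes of a member. An item that these rules would name is not reported here, and the chromobox shares were taken over the members alone. COMMD3 and COMMD3-BMI1 were added after their values were seen. Genes were joined by Ensembl identifier, since a spreadsheet had turned names into dates in some files (33 names differed between files). Positions are from GENCODE release 44 and promoters from RefSeq (GRCh38.p14), with entries for 7 of the 9 members. Python 3.11.15 with pandas 2.3.3, numpy 2.4.6 and matplotlib 3.10.9 was used. Alternatives were another pseudocount, filter, scaling, threshold and reference, fits of single lines, a replicate block and leaving out each sample.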

Additional observations from a re-analysis of the deposited data

Results flagged for a closer look

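BMI1 in EZH2-/- H1 replicate 1, at 34.13 TPM, stood apart from the other 5 retaining samples, the next of which was EZH2-/- H1 replicate 2 at 10.59 TPM. The gap was 0.735 of the range of the 6 samples. Of 18 groups of 6 samples examined, 1 was picked out in this way, and about 1 in 20 would be by chance. The 6 samples come from 3 genotypes, so that the gap is not one between replicates alone.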

How the results depend on the processing

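The calls of BMI1, CBX2 and CBX8 against WT H1 in the PRC2-null lines were kept with each of the 12 samples left out in turn, where a lone sample is assumed to vary like the other lines. Leaving out 1 sample moved the members called up between 2 and 4 in EED-/- and 2 and 3 in SUZ12-/- H1 cells against WT H1 and between 4 and 5 in PRC2-null against retaining lines. It moved the members called down between 1 and 2 in EED-/-, 1 and 3 in SUZ12-/-, and 1 and 2 in EZH2-/-/EZH1-/- H1 cells against WT H1, and between 1 and 3 in PRC2-null against retaining lines. The samples behind the moves of members called down were both of EZH2-/-/EZH1-/- H1, both of EED-/- H1 and EZH2-/- H1 replicate 2. RING1 lost its call against WT H1 in 3 of 12 such fits in EED-/- (either WT H1 sample or EED-/- H1 replicate 1 left out) and in 6 of 12 in SUZ12-/- H1 cells (either sample of WT, EZH1-/- or SUZ12-/- H1). CBX6 was called up in EED-/- H1 cells without EED-/- H1 replicate 2. Without EZH2-/-/EZH1-/- H1 replicate 1, RNF2 was called in that line against EED-/- H1 and against SUZ12-/- H1, so members called there ranged from 0 to 1 and from 0 to 1.

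Rescaling by median ratios gave 3 members down in EED-/-, 2 in SUZ12-/- and 2 in EZH2-/-/EZH1-/- H1 cells, 4 down in PRC2-null against retaining lines, and 16 partner genes down. In the same order of comparisons 3371, 2933, 2879 and 5113 of 18930 genes were called down. The rescaling moved the median log2 change of all genes in PRC2-null against retaining lines from 0.29 to 0.07. The share of calls that were up moved there from 64.7% to 53.9%. RING1 then lost its call in EED-/- H1 cells (0.66, adjusted p = 0.0268). At an adjusted p of at most 0.05 there were 4 members up in EED-/-, 4 in SUZ12-/- and 3 in EZH2-/-/EZH1-/- H1 cells and 2 down in each, 5 up and 4 down in PRC2-null against retaining lines, 1 called between EZH2-/- and EZH1-/- H1 cells (BMI1) and 1 down with day (CBX2). All genes called up then numbered 6518 in EED-/-, 5637 in SUZ12-/- and 5141 in EZH2-/-/EZH1-/- H1 cells, of 19100. Those called down numbered 3256, 3325 and 3318. In PRC2-null against retaining lines 8370 were up and 4728 down. Between EZH2-/- and EZH1-/- H1 cells 18 were up and 69 down, and with day 1268 of 17099 were down. Fits of only the lines compared gave 2 down in EED-/-, 3 in SUZ12-/-, 0 in EZH2-/-/EZH1-/- H1 cells, where CBX2 lost its call (-1.26, adjusted p = 0.0140), and 1 in EZH1-/- H1 cells (RNF2). In the same order 2539 of 16914, 4055 of 17238, 645 of 16642 and 1003 of 15476 genes were called down in these fits. With a TPM of at least 1 required in all 12 samples, CBX8 was no longer tested, which left 1 member up in EZH2-/-/EZH1-/- H1 cells, and RNF2 made 2 down. Of 12308 genes 2020 were called up and 1739 down in that comparison. With EZH2-/- H1 left out of the reference, a setting chosen after seeing the data, 3 members were down in PRC2-null against retaining lines, as were 3584 of 19100 genes.

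Counting the PCGF shares over the 3 PCGF members alone put BMI1 at 49.2% in the PRC2-null samples, PCGF1 at 13.7% and 13.6%, and PCGF2 at 75.3% and 37.2% in retaining and PRC2-null samples. With the replicate block, 4 members were called up and 1 down in PRC2-null against retaining lines, beside 7008 and 3837 of 19100 genes. The block changed no other call of a member. Replicate numbers were given in sample order and do not pair samples (mean correlation of deviations -0.0027 over 15 pairs of lines, range -0.12 to 0.22). The cause of these moves was not tested where none is given. Read depth is unknown, so what it limits cannot be stated.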
